A study of Mus musculus with 9 samples.

Results

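Iron storage, uptake and iron-regulatory genes were read in the mouse embryonic stem cell line D3-pOct4, over 9 Affymetrix Mouse Genome 430 2.0 arrays. The 8 genes listed were Fth1, Ftl1, Tfrc, Aco1, Ireb2, Slc11a2, Slc40a1 and Iscu, and a probe set was taken where the platform annotation names 1 of them and no other gene. This gave 19 of the 45101 probe sets, for 7 of the 8 genes, out of 18194 genes named on the platform in this way. Ftl1, the light chain of ferritin, has 3 probe sets, but each also carries the symbol of its pseudogene Ftl1-ps2, and no value of Ftl1 is given. Of the 19, 15 were tested. The other 4 were 3 control probe sets of Tfrc and 1 dim probe set of Aco1, which lay below the filter on low values at 1.98 to 13.5. The annotation used here places the 7 genes on 7 chromosomes of GRCm38.p6, for example Fth1 at chr19:9980600-9985111 and Tfrc at chr16:32608896-32632794.

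The cultures were kept for 7 days in serum medium in 3 conditions: without leukemia inhibitory factor (LIF) and with 2 µM DETA/NO, a slow donor of nitric oxide; without LIF; and with 1000 U/ml of LIF, the cytokine that holds mouse embryonic stem cells undifferentiated. Each condition has 3 arrays, replicates 1, 2 and 3, from passages 31, 33 and 34. All come from 1 cell line, and the labels say neither how the line was made nor whether each array had a culture of its own. The p-values below therefore weigh a difference only against the scatter of these arrays, which may be partly technical.

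Cells take up iron bound to transferrin through the transferrin receptor (Tfrc) and move it out of endosomes through the divalent metal transporter (Slc11a2). Spare iron is stored in ferritin, a shell of heavy (Fth1) and light (Ftl1) chains, and leaves the cell through ferroportin (Slc40a1). The iron regulatory proteins IRP1 (Aco1) and IRP2 (Ireb2) bind hairpins called iron-responsive elements in the transcripts of these genes, and so hold back the translation of ferritin and ferroportin and protect the Tfrc transcript. IRP1 carries an iron-sulphur cluster when iron is ample and is then a cytosolic aconitase; nitric oxide is known to attack such clusters. Iscu is the scaffold on which new iron-sulphur clusters are built. An array reads transcript levels and sees nothing of translation or of the clusters.

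Start-site windows are shown for the storage gene and the uptake gene, since they stand at the opposite ends of this control. No iron-responsive element was searched for in these windows. They run from 250 bases before to 50 bases after a start in RefSeq, build GRCm38.p6, where 5 of the 8 genes had 7 windows. Fth1 and Tfrc have 2 windows each, of which the downstream one is printed for Fth1 and the upstream one for Tfrc. The plus strand is printed for both genes, which is the strand each is read from, and capitals mark the motifs found out of 5 searched on both strands.
Fth1, chr19:9982396-9982695: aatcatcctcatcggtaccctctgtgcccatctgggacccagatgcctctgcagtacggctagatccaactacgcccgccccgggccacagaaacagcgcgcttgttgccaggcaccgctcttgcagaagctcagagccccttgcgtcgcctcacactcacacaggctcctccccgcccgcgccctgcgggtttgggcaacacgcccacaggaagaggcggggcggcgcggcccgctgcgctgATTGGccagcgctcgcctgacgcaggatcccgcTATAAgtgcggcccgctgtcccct
Tfrc, chr16:32608646-32608945: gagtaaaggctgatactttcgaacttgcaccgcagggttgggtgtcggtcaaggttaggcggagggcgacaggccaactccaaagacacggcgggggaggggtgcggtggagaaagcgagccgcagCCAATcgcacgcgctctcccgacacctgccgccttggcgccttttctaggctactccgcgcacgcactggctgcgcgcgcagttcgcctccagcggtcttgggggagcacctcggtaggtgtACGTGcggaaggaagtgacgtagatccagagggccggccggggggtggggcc

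The Tfrc window holds ACGTG, the core letters of hypoxia response elements, with its first base at -2 from the start, and CCAAT at -124. The Fth1 window holds CCAAT on the minus strand, its leftmost base at -7, and TATAA at 27. Neither window holds TGACNNNGC, the letters of antioxidant response elements, or TTCNNNGAA, those of STAT sites. Of all 32851 windows of this length, 19.6% hold ACGTG, 37.4% CCAAT, 24.9% TATAA, 12.4% TGACNNNGC and 8.3% TTCNNNGAA. No 2 of these motifs overlap in the windows printed. The Fth1 window not printed holds TATAA on the minus strand, its leftmost base at -123. The Tfrc window not printed holds the same ACGTG, there at -228, and TATAA at -172. Positions therefore depend on the start used.

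Arrays that stand apart bear on every result. Signals are linear and scaled to 1 target by the authors, but the median signal was 20.8 to 23.3 on 3 arrays, DETA/NO replicates 1 and 2 and LIF replicate 1, against 13.9 to 17.8 on the other 6; the 3 are called the brighter arrays. Socs3, a target of LIF signalling, read 282 on LIF replicate 2 and 3054 on no-LIF replicate 2, against their labels. DETA/NO replicate 3 and no-LIF replicate 1 were closer to each other than any other pair of the 36, with an SD of 0.198 for the log2 differences of the brightest 25% of tested probe sets, and are called the alike pair. The next closest pair had an SD of 0.532, and pairs within a group had 0.601 to 1.27. All arrays were used as labelled. All 6 stem cell markers listed read at least 271 on every array, and all 5 red cell markers with a probe set lay below the median of every array. Of 6 fibroblast markers, 3 lay below the median of every array. Parietal endoderm markers summed to 1359 to 3232 in DETA/NO cultures, 1419 to 5126 without LIF and 3592 to 12017 with LIF, and their part in the results was not tested. Macrophage markers summed to 127.1 to 448 with DETA/NO, 91.5 to 603 without LIF and 159 to 676 with LIF, but Cd68 alone made up most of each sum, at 56.6 to 591, while Ptprc was below the median of every array. In bulk RNA, fewer cells of a type and less RNA per cell cannot be told apart.

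None of the iron genes passed the test in any comparison. The test was limma on log2(signal + 3) over all 9 arrays, with p-values adjusted over 29811 probe sets, and it called 0 of these (0%) in each of the 3 comparisons, by an adjusted p under 0.05. At an unadjusted p under 0.05, 0 of the 15 iron probe sets stood out without LIF against LIF, where 1.54% of all tested did (0.275% higher and 1.26% lower). Against no LIF, DETA/NO had 1 higher and 1 lower, where 5.02% of all tested stood out (4.24% higher and 0.782% lower). Against LIF, DETA/NO had 0, where 1.94% of all tested stood out (1.06% higher and 0.876% lower). The median log2 difference over the 7 genes, each by its brightest tested probe set, was 0.23, -0.18 and 0.03 in that order, against 0.01, -0.02 and -0.01 over all 13376 genes. What follows is therefore a description of levels and of their spread, gene by gene. The comparisons share arrays: no-LIF arrays enter the first and the second, LIF arrays the first and the third, and DETA/NO arrays the second and the third.

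**Figure D1:**
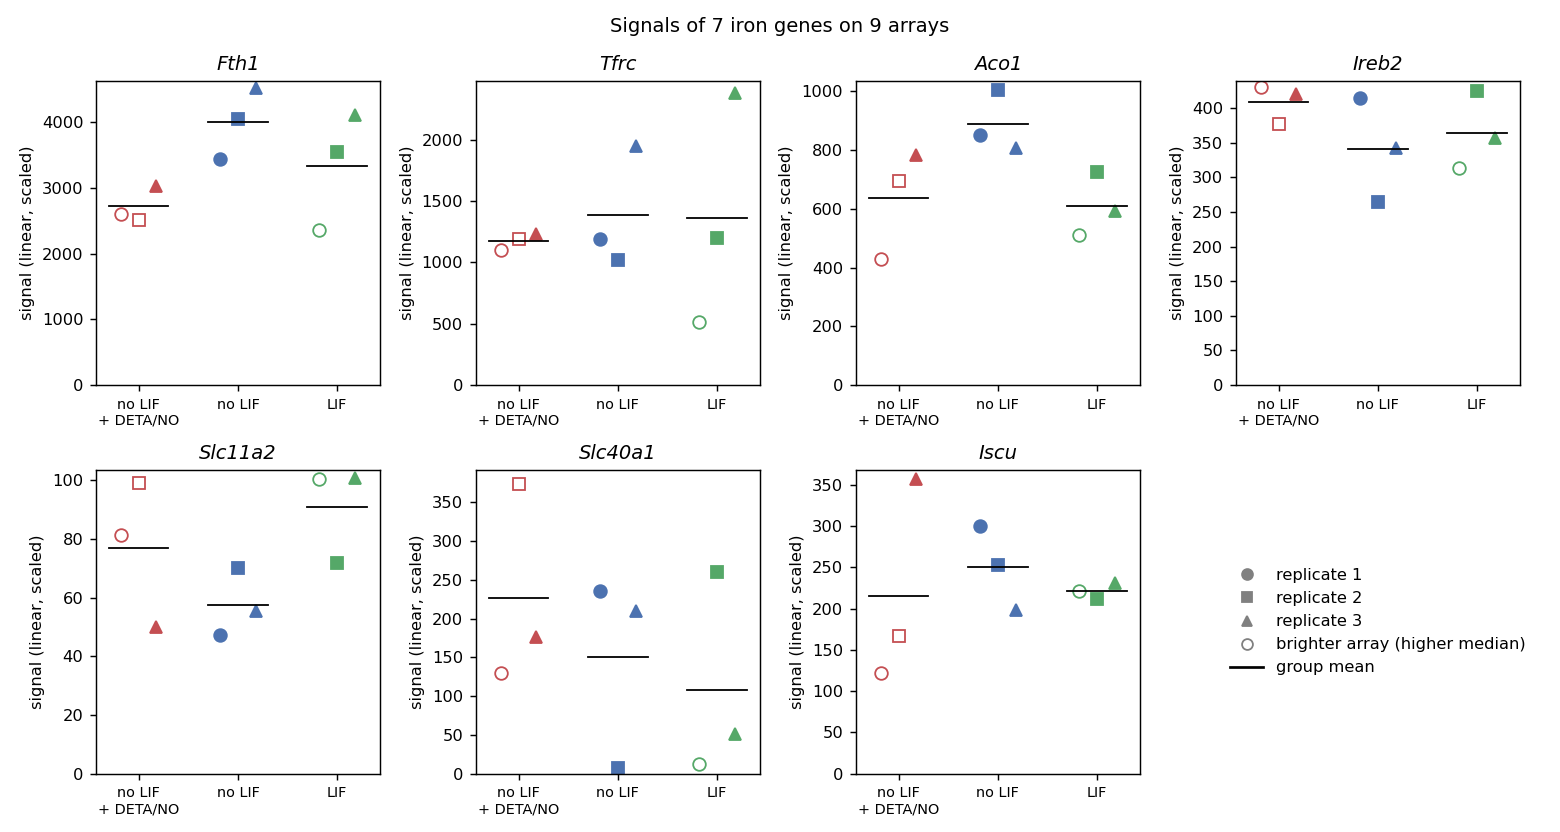
Signals of the brightest tested probe set of 7 iron genes on each array, on a linear axis from 0, by group; symbols give the replicate, open symbols the 3 brighter arrays and bars the group means. Fth1 is at most 3035 on the 3 DETA/NO arrays and at least 3442 on the 3 no-LIF arrays, and Slc40a1 ranges from 7.19 to 374.

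Ferritin heavy chain transcripts had their lowest mean with the nitric oxide donor, a difference that did not pass the test. The brighter probe set of Fth1, which encodes the iron-oxidising chain of ferritin, read 2611, 2513 and 3035 in DETA/NO replicates 1 to 3 and 3442, 4045 and 4521 in no-LIF replicates 1 to 3. In LIF replicates 1 to 3 it read 2356, 3546 and 4117. Every DETA/NO array lay below every no-LIF array, while the LIF arrays overlapped both groups. The log2 difference of DETA/NO from no LIF was -0.55 (SE 0.27; limma adjusted p = 0.929), and its 95% interval ran from -1.15 to 0.05. The other probe set of Fth1 gave the same order, with means of 2095 ± 552 with DETA/NO and 3601 ± 160 without LIF (SD, n = 3). These differ by -0.81 on the log2 scale (SE 0.27), which makes it 1 of the 2 probe sets at an unadjusted p under 0.05, and the limma adjusted p was 0.929. The pair of probe sets kept together, with a root mean square difference of 0.2 on the log2 scale once each was centred on its own mean. Probe sets of ferritin may also catch transcripts of processed ferritin pseudogenes, and the second is of the kind whose probes are shared with other transcripts.

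The brightness of the arrays moved with Fth1. The 3 brighter arrays held its 3 lowest signals, 2356 to 2611, against 3035 to 4521 on the 6 dimmer ones. For the other probe set these were 1658 to 2484 and 2716 to 3721. With brightness as a block the difference of DETA/NO from no LIF was -0.24 (SE 0.26), and among the 6 dimmer arrays, where DETA/NO has 1 array, -0.39 (SE 0.29). That donor array is 1 of the alike pair. After quantile normalization the difference was -0.26, and after median centring -0.78 (SE 0.36; limma adjusted p = 0.858). The 3' to 5' ratio of the beta-actin control, a sign of RNA quality, was 2.19 to 2.68 on the brighter arrays, 1.52 to 2.04 on 5 of the dimmer ones and 3.15 on no-LIF replicate 3, where Fth1 was highest; its part was not tested. For no LIF against LIF it was 0.29 (SE 0.27; limma adjusted p = 0.973), higher at 3 of 3 passages, with 0.02 after quantile normalization and 0.51 after median centring. Without LIF replicate 1 it was 0.058, and without LIF replicate 3 it was 0.46. DETA/NO cultures differed from LIF cultures by -0.26 (SE 0.27; limma adjusted p = 0.9997), lower at 2 of 3 passages, with -0.49 without LIF replicate 1 and -0.092 without LIF replicate 3. The 3 genes closest to Fth1 over the 9 arrays, out of 13375, were Eif3k, Rps29 and Rps3, a subunit of a translation initiation factor and 2 proteins of the small ribosomal subunit. Their centred log2 signals differed from those of Fth1 by a root mean square of 0.09, 0.13 and 0.13, against a median of 0.59 over all genes.

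Among the uptake genes, Tfrc varied more within groups than between them. Its brightest probe set read 1099, 1194 and 1236 in DETA/NO replicates 1 to 3, which lie close together. It read 1191, 1021 and 1948 in no-LIF replicates 1 to 3. In LIF replicates 1 to 3 it read 511, 1199 and 2387, the lowest and the highest of all 9. All 3 groups overlapped. The log2 difference of DETA/NO from no LIF was -0.18 (SE 0.49; limma adjusted p = 0.979) with a 95% interval from -1.27 to 0.91, and that from LIF was 0.05 (SE 0.49), with an interval from -1.04 to 1.14. For no LIF against LIF it was 0.23 (SE 0.49), from -0.86 to 1.32. These intervals still hold changes of more than 1 on the log2 scale. With brightness as a block the first of these became 0.43 and the last -0.07, so the sign of Tfrc is not settled.

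The probe sets of Tfrc disagreed on single arrays. On no-LIF replicate 3 the brightest read 1948, the highest but 1 of the 9, whereas the second probe set by signal read 50.3 there, its lowest. This second one read 121, 89.7 and 119.8 with DETA/NO, 168, 127 and 50.3 without LIF and 98.5, 93.2 and 321 with LIF, and took the opposite sign to the brightest in all 3 comparisons. The third and dimmest tested probe set kept the sign of the brightest in all 3, at signals of only 0.916 to 48.5. On no-LIF replicate 3 it read 7.70, below the array median of 15.6. The platform also carries control probe sets from the 5' part, the middle and the 3' part of the Tfrc transcript, which read the integrity of RNA and labelling. Signal at the 3' end over that at the 5' end came to 3.37, 3.52 and 5.41 with DETA/NO, 2.47, 4.2 and 16.8 without LIF and 4.42, 6.04 and 5.63 with LIF. The highest, on no-LIF replicate 3, rests on a 5' signal of 1.91. The 5' signal lay below the array median on that array and on 4 others, DETA/NO replicates 1 and 2 and LIF replicates 1 and 2, so the ratios there have no firm size. The same ratio for beta-actin was highest on that array too, at 3.15 against 1.52 to 2.68 on the other 8. The part of RNA integrity in the disagreement was not tested. The 3 genes closest to Tfrc were Myo15b, Lgals9 and Trmt1l, each at a root mean square difference of 0.29 against a median of 0.74, which is a looser match than that of Fth1.

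Slc11a2, the metal transporter of endosomes and of the gut, was dim but above the array medians on every array by its brightest probe set. It read 81.3, 98.9 and 50.1 with DETA/NO, 47.2, 70.0 and 55.5 without LIF and 100.3, 71.9 and 100.9 with LIF. On that probe set every no-LIF array lay below every LIF array, by a margin of 70.0 against 71.9 at passage 33. The log2 difference without LIF against LIF was -0.64 (SE 0.38; limma adjusted p = 0.973). With DETA/NO it was 0.36 (SE 0.38; adjusted p = 0.946) against no LIF and -0.27 (SE 0.38; adjusted p = 0.9997) against LIF, both by limma. The dimmest of its probe sets was the other at an unadjusted p under 0.05 with DETA/NO against no LIF, at 18.6, 30.0 and 21.3 with the donor and 18.1, 0.961 and 8.45 without it. Its log2 difference was 1.39 (SE 0.6; limma adjusted p = 0.929). Without LIF, replicates 2 and 3 lay below their array medians of 15.9 and 15.6, so the size of this difference is not fixed by the data. Within the 6 dimmer arrays the brightest probe set gave -0.17 for DETA/NO against no LIF, the opposite sign. On the other tested probe sets of Slc11a2 the groups without and with LIF overlapped. Their log2 differences without LIF against LIF were -0.29, -0.5 and -0.96, from the second brightest to the dimmest.

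Ferroportin, the only known exporter of iron from mammalian cells, had the widest spread of the iron genes. Slc40a1 read 129.8, 374 and 176 in DETA/NO replicates 1 to 3. It read 235, 7.19 and 210.1 in no-LIF replicates 1 to 3. In LIF replicates 1 to 3 it read 12.5, 261 and 50.8. Replicate 2 without LIF and replicate 1 with LIF were thus the lowest of the 9, both below the medians of their arrays, 15.9 and 23.3, and log2 differences that rest on them have no firm size. In contrast, replicate 2 with LIF was the second highest. The SD of its log2 signal over the 9 arrays was 1.88, larger than that of 99.7% of the tested probe sets, whose median SD was 0.61. The second probe set gave 83.1, 190.3 and 94.0 with DETA/NO, 108, 8.96 and 91.6 without LIF and 11.0, 109 and 32.2 with LIF, with the same 3 arrays at the low end.

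The 3 arrays with the lowest Slc40a1 were those with the highest Socs3. Socs3 read 3054 on no-LIF replicate 2, 3213 on LIF replicate 1 and 1794 on LIF replicate 3, where Slc40a1 read 7.19, 12.5 and 50.8. On the other 6 arrays Socs3 was 95.8 to 405 and Slc40a1 129.8 to 374, whatever the label. Within those 6 arrays the pattern did not go on, as DETA/NO replicate 2 had both the highest Socs3 of the 6 and the highest Slc40a1. These values are given side by side with no test, since the arrays were not grouped by any label. The brightness of the arrays did not part Slc40a1, which spanned 12.5 to 374 among the brighter and 7.19 to 261 among the dimmer ones.

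**Figure D2:**
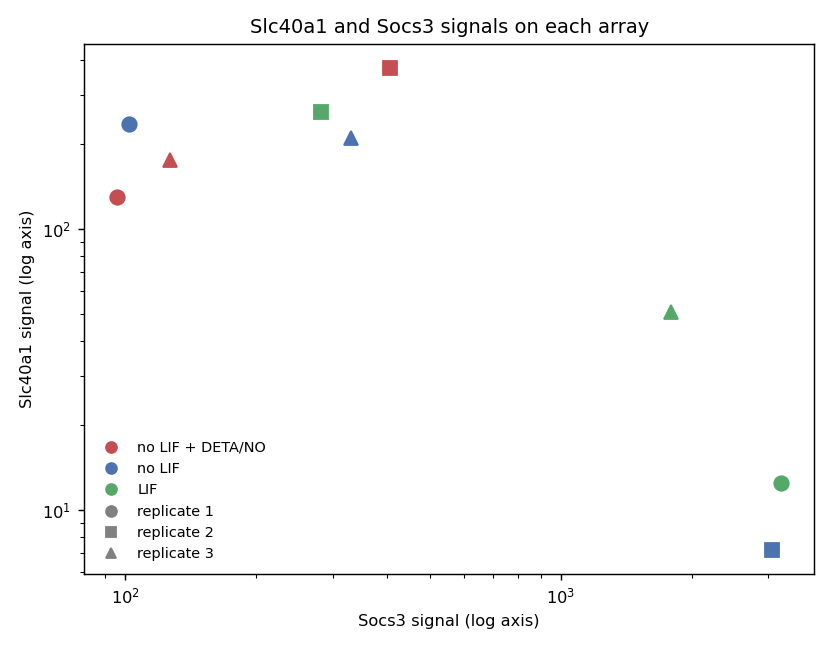
Slc40a1 signal against Socs3 signal on each of the 9 arrays, both axes logarithmic; colours give the group and symbols the replicate. Slc40a1 is 50.8 or lower on the 3 arrays with Socs3 of 1794 or higher, 1 of them without LIF, and 129.8 or higher on the other 6.

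By label, Slc40a1 averaged 227 ± 129.6 with DETA/NO, 151 ± 125 without LIF and 108 ± 134 with LIF (SD, n = 3). The log2 difference of DETA/NO was 1.37 (SE 1.24; limma adjusted p = 0.932) from no LIF and 1.78 (SE 1.24; adjusted p = 0.9997) from LIF by the same fit. It was higher than with LIF at 3 of 3 passages. Without LIF against LIF it was 0.41 (SE 1.24; limma adjusted p = 0.975), higher at 2 of 3 passages and lower at passage 33. Without the replicate 2 arrays of these groups that value was 2.97 (SE 0.71; limma adjusted p = 0.553) and that of DETA/NO from LIF 2.85 (SE 0.65; adjusted p = 0.456), while DETA/NO from no LIF turned to -0.12. Without LIF replicate 1, DETA/NO differed from LIF by only 0.8 (SE 1.24) and no LIF from LIF by -0.57, and within the 6 dimmer arrays DETA/NO differed from LIF by 0.59 (SE 1.8). The replicate 2 arrays with and without LIF were set aside for their Socs3, which runs opposite to Slc40a1 on them. The larger values, 2.97 and 2.85, are therefore no independent support. The 3 genes closest to Slc40a1, looked up after its values were seen, were Tnfrsf19, Tmcc3 and Ccn1, at 0.31, 0.38 and 0.39 against a median of 1.8. Ccn1, which encodes a secreted matrix protein, read 25.5 on no-LIF replicate 2, 47.2 on LIF replicate 1, 171 on LIF replicate 3 and 629 to 1624 elsewhere.

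Of the regulators, Aco1 was highest without LIF. Its brightest probe set, of a kind that may catch related transcripts, read 429.7, 696 and 782 with DETA/NO, 851, 1007 and 808 without LIF and 509.6, 724 and 594 with LIF. Every no-LIF array lay above every array of the other 2 groups. The log2 difference of DETA/NO from no LIF was -0.52 (SE 0.33; limma adjusted p = 0.929) with a 95% interval from -1.24 to 0.2, and that of no LIF from LIF was 0.55 (SE 0.33; limma adjusted p = 0.973), from -0.17 to 1.27. The second probe set read 76.6, 118 and 129.6 with DETA/NO, 138, 196 and 191 without LIF and 128.5, 158 and 145 with LIF. It too put every DETA/NO array below every no-LIF array (-0.7, SE 0.35; limma adjusted p = 0.929), but its groups with and without LIF overlapped (0.27, SE 0.35). On this probe set the 3 brighter arrays read 76.6 to 128.5 and the other 6 129.6 to 196, which barely part. For the first probe set they overlapped, at 429.7 to 696 against 594 to 1007. With brightness as a block the difference of DETA/NO from no LIF was -0.23 (SE 0.35) for the first probe set, and -0.18 (SE 0.38) within the 6 dimmer arrays. Without DETA/NO replicate 1 it was -0.26 (SE 0.32). DETA/NO against LIF gave 0.03 for the first probe set and -0.43 for the second.

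Ireb2, which encodes the regulator that is controlled by its own breakdown, was the steadiest of the iron genes. It read 431, 377 and 420.3 with DETA/NO, 415, 265 and 342 without LIF and 313, 425 and 357 with LIF. Its signals ran from 265 to 431, and the SD of its log2 signal, 0.24, was larger than that of only 2.58% of the tested probe sets. All groups overlapped. The log2 difference of DETA/NO was 0.28 (SE 0.32; limma adjusted p = 0.947) from no LIF, with a 95% interval from -0.41 to 0.98, and 0.17 (SE 0.32) from LIF, from -0.52 to 0.87. Cultures without LIF differed from those with LIF by -0.11 (SE 0.32), from -0.81 to 0.58. It was higher with DETA/NO than without LIF at 3 of 3 passages, by 0.06 to 0.51.

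Iscu, the cluster scaffold, spread most in the donor group. It read 122, 167 and 356 in DETA/NO replicates 1 to 3, which hold both the lowest and the highest signal of the 9. It read 300.1, 253 and 198 without LIF and 222, 212 and 231 with LIF. The log2 difference of DETA/NO was -0.34 (SE 0.42; limma adjusted p = 0.954) from no LIF and -0.19 (SE 0.42; adjusted p = 0.9997) from LIF in the same fit, and that of no LIF from LIF was 0.16 (SE 0.42; limma adjusted p = 0.973). Without DETA/NO replicate 3 the first of these was -0.78, and without DETA/NO replicate 1 it was -0.016. DETA/NO replicates 1 and 2, the low ones, are brighter arrays, and replicate 3 is 1 of the alike pair, whose other array, no-LIF replicate 1, read 300.1. Within the 6 dimmer arrays the differences of DETA/NO took the opposite sign, at 0.52 from no LIF and 0.68 from LIF, each resting on that 1 donor array.

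Counted by groups that did not overlap, DETA/NO against no LIF had 4 of 15 iron probe sets with every donor array lower, against 2.52% of all tested, and 1 with every donor array higher, against 6.4%. The 4 were both tested probe sets of Fth1 and both of Aco1, so they stand for 2 genes. The 1 was the dimmest probe set of Slc11a2. Without LIF against LIF, 1 probe set was higher on every array (2.88% of all tested), of Aco1, and 1 was lower (4.72%), of Slc11a2. Between DETA/NO and LIF, 0 were higher (2.79%) and 0 lower (3.19%) throughout. With 3 arrays against 3, an exact two-sided permutation test of 1 probe set cannot go below p = 0.1.

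**Figure D3:**
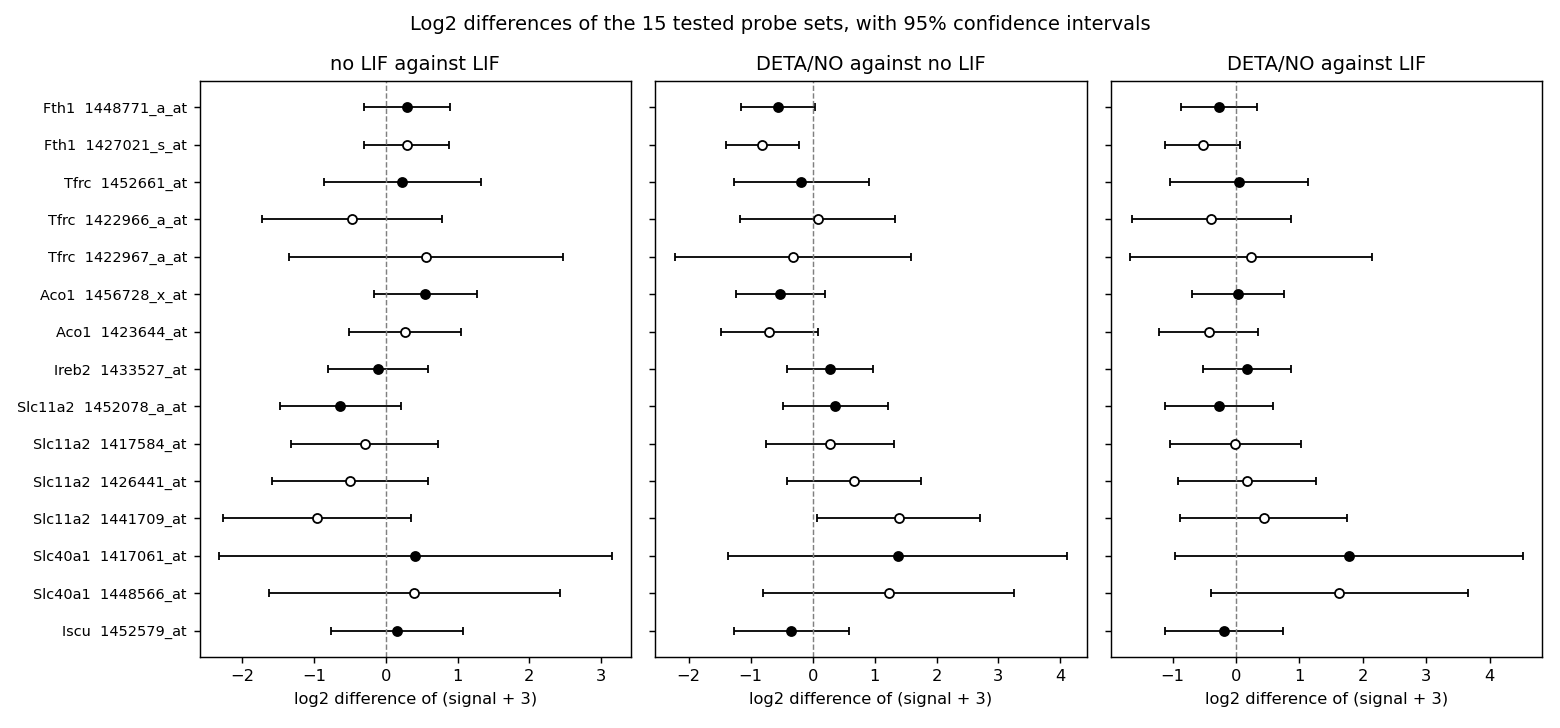
Log2 differences of signal + 3 for the 15 tested iron probe sets in the 3 comparisons, with 95% confidence intervals from limma; filled symbols mark the brightest probe set of each gene. The interval excludes 0 for the second probe set of Fth1 and the dimmest of Slc11a2, both with DETA/NO against no LIF, before adjustment for the number of probe sets.

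The wider pathway was read from 6 lists of 56 genes, of which 49 have a probe set of their own and 44 were tested. None was called by limma in any comparison, at an adjusted p under 0.05. At an unadjusted p under 0.05, 1 gene stood lower with DETA/NO against no LIF and 1 against LIF, Hmox1 in both, and 0 stood out without LIF against LIF. Of all tested probe sets 0.782% and 0.876% stood lower in the same 2 comparisons, so 1 of 44 is no result about the lists. Hmox1, the inducible oxygenase that frees iron from haem, read 95.5, 105 and 136.7 with DETA/NO, 179, 187 and 206 without LIF and 162, 247 and 239 with LIF. Every donor array lay below every array of the other groups. Its log2 difference was -0.76 (SE 0.34; limma adjusted p = 0.929) from no LIF and -0.91 (SE 0.34; limma adjusted p = 0.9997) from LIF. Hscb, a co-chaperone of cluster transfer, was the other listed gene below both groups on every donor array, which makes 2 of 44 where 2.52% of all tested probe sets lay wholly below no LIF and 3.19% below LIF. Hscb read 95.9, 70.4 and 112 with DETA/NO, 119, 214 and 163 without LIF and 176, 152 and 136 with LIF.

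Of the genes of iron-sulphur cluster assembly, 0 of 16 stood out in any comparison even at an unadjusted p under 0.05. With DETA/NO against no LIF, 16 of 16 tested members were lower, with a median log2 difference of -0.36, against 52.4% of all genes and a median of -0.02. The brightest were Hspa9, the mitochondrial chaperone of the pathway, at 1466 ± 502 with DETA/NO and 1863 ± 319.95 without LIF (SD, n = 3), and Glrx5, a glutaredoxin that passes clusters on, at 587 ± 339.6 and 689.7 ± 263 in the same groups. Their log2 differences were -0.38 (SE 0.42) and -0.35 (SE 0.5). The count moved with the brightness of the arrays: with brightness as a block 8 of 16 were lower with a median of 0.01, and within the 6 dimmer arrays 8 of 16 with 0.03. Without DETA/NO replicate 1, 11 of 16 were lower with a median of -0.12. Of all genes, 47.9%, 49.4% and 47% were lower in the same settings, in that order. The mean log2 signal of the list, centred per gene, lay between -0.6 and -0.11 for the 3 brighter arrays and between 0.05 and 0.32 for the 6 dimmer ones. The beta-actin ratio given above for Fth1 was 2.19 to 2.68 on the brighter arrays. It was highest on no-LIF replicate 3, at 3.15, where the list mean was 0.05. LIF replicates 2 and 3, at ratios of 1.81 and 2.04, had list means of 0.06 and 0.07. No-LIF replicates 1 and 2, at 1.52 and 1.9, had 0.23 and 0.32, and DETA/NO replicate 3, at 1.62, had 0.2. The part of RNA quality was not tested. Without LIF against LIF, 15 of 16 were higher (median 0.24, against 50.4% and 0.01 over all genes), and 12 of 16 with brightness as a block, without LIF replicate 1 (median 0.12) or without no-LIF replicate 2 (0.11). These alternatives had 47.6%, 45.9% and 51.7% of all genes higher. With DETA/NO against LIF, 12 of 16 were lower (median -0.15, against 50.9% and -0.01), 8 of 16 with the block and 6 of 16 without DETA/NO replicate 1. For the block and this omission the shares of all genes were 49.2% and 46.4%.

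Genes of haem synthesis and breakdown took the same side, with 13 of 14 lower with DETA/NO against no LIF (median -0.33). Without LIF against LIF 10 of 14 were higher (0.19), and with DETA/NO against LIF 11 of 14 were lower (-0.09). Over all genes these shares were 52.4%, 50.4% and 50.9%. With brightness as a block the 3 counts were 8, 9 and 7 of 14, against 47.9%, 47.6% and 49.2% of all genes. The first was 12 of 14 without the alike pair (median -0.5, against 53.1% and -0.05 over all genes). After quantile normalization it was 13 of 14 (-0.44, against 62.5% and -0.14 over all genes). Without LIF replicate 1 the second was 6 of 14, and without DETA/NO replicate 1 the last was 6 of 14 and the median of the first -0.16. The brightest, Urod and Alad, enzymes of haem synthesis, stood at -0.3 (SE 0.34) and -0.42 (SE 0.39) with DETA/NO against no LIF. Urod read 963, 1021 and 1179 without LIF and 538, 946 and 762 with LIF, so that every array without LIF was higher (0.52, SE 0.34; limma adjusted p = 0.973). Over all lists 2 of 44 genes were higher on every array without LIF, Urod and Blvrb (0.83), where 2.88% of all tested probe sets were, and 2 lower, Slc39a14 and Abcb10 (-0.46), where 4.72% were. The 4 remaining lists hold few tested genes. All 3 genes of ferritin loading and turnover were lower with DETA/NO against no LIF, with the iron chaperones Pcbp1 and Pcbp2 at -0.35 (SE 0.27) and -0.19 (SE 0.35). Of 6 genes of uptake 3 were higher, led in signal by the metal transporters Slc39a14 at 0.61 (SE 0.5) and Slc39a8 at 1.22 (SE 1.35). Slc39a14 read 117, 211 and 206 without LIF and 303, 251 and 300.0 with LIF, every array without LIF being lower (-0.71, SE 0.5; limma adjusted p = 0.973). Slc39a8 read 0.114 on no-LIF replicate 2, 9.51 on LIF replicate 1 and 18.4 on LIF replicate 3, against 55.6 to 195 elsewhere, which are the arrays at which Slc40a1 was lowest. Both tested genes of export were higher, the haem exporter Flvcr1 at 1.1 (SE 0.71) and the hormone gene Hamp at 0.53 (SE 0.7), with Hamp at signals of only 0.585 to 18.3. Of 3 genes that bear on the iron regulatory proteins, Hif1a stood at 0.24 (SE 0.43) and Fbxl5, which marks IRP2 for breakdown, at -0.33 (SE 0.35).

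**Figure D4:**
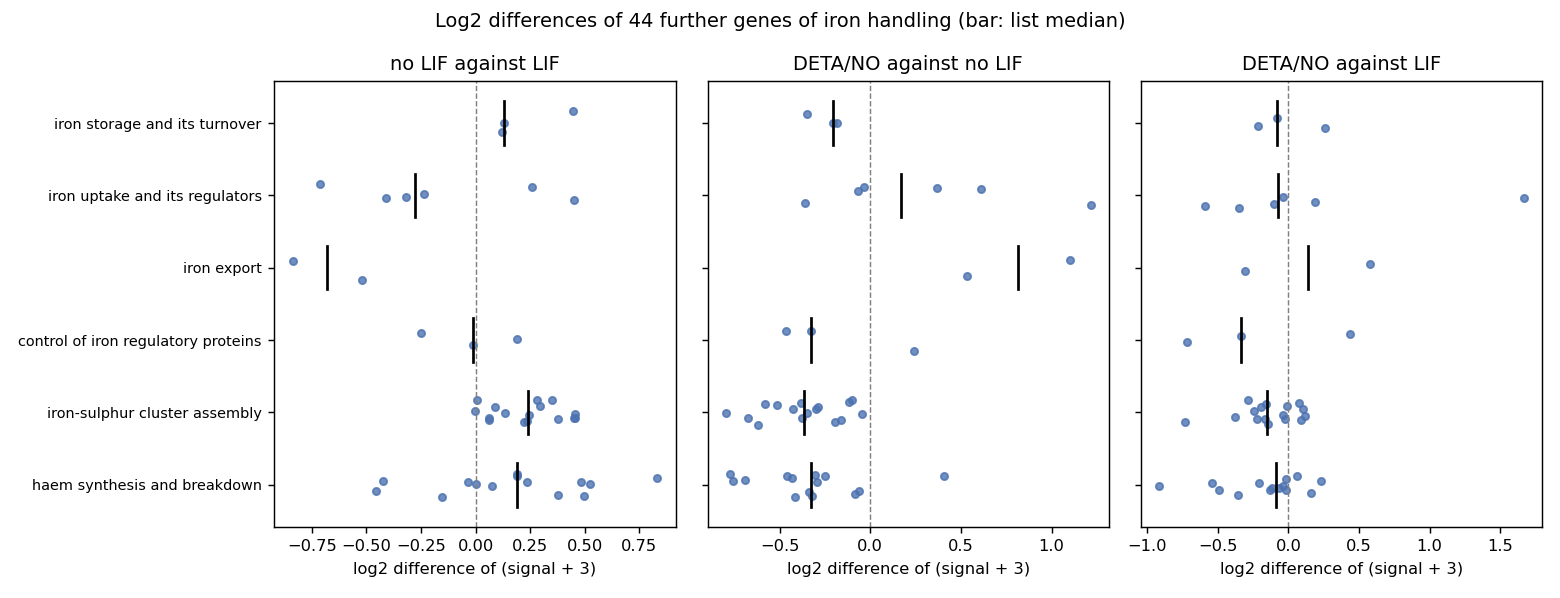
Log2 differences of signal + 3 for 44 further genes of iron handling, by list and comparison; points are genes, spread vertically only to part them, and bars are list medians. Points of iron-sulphur cluster assembly lie left of 0 in all 16 cases with DETA/NO against no LIF. That count is 8 of 16 with array brightness as a block and 16 of 16 without the alike pair. DETA/NO replicates 1 and 2 are brighter arrays and no no-LIF array is.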

How the data were processed

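The authors deposited linear signal intensities, which their design text credits to GeneChip Operating System 1.4.0.036 and global scaling; MAS5 stands in the submitters' processing notes. The 2% trimmed mean is 100 on all 9 arrays. Scanner files and presence calls were not used here.

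Probe sets took their gene from the platform annotation, if it lists 1 symbol. Tested were those that reached their array's 40th percentile on 3 or more arrays, less 64 control probe sets. Values were analysed as log2(signal + 3), a scale that understates changes of dim probe sets. They went into 1 limma 3.58.1 fit (R 4.3.3, eBayes with an intensity trend, two-sided, Benjamini-Hochberg adjustment). The code of this fit was tried on simulated data with independent noise and less scatter than these arrays have. That run does not show what the fit can find at the scatter of these arrays. A gene is given by its brightest tested probe set. A gene is named if it is a member, among the 2 brightest of a pathway list, Socs3, or 1 of the 3 closest to Fth1 or Tfrc by centred log2 signal; Hmox1, Hscb, Blvrb, Abcb10 and the neighbours of Slc40a1 were added after their values were seen. The members and lists were chosen with earlier results of these data known. Same-numbered arrays share a passage; the correlations of their deviations from the group means ran from -0.6 to 0.65, over 0.1 in 3 of 9 pairs, so the numbers were not taken to pair the arrays. Alternatives were other pseudocounts, filters, scalings and variance models, blocks, other probe sets and the omission of arrays. The number of arrays limits the precision.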

Additional observations from a re-analysis of the deposited data

How the results depend on the processing

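By limma, 0 probe sets were called in each comparison under all 22 other settings run for that count. At an unadjusted p under 0.05 the counts ran over all settings from 201 to 2444 without LIF against LIF, 320 to 4290 with DETA/NO against no LIF and 258 to 1653 with DETA/NO against LIF. With the replicate number as a block they were 493, 1602 and 471, and this block changed no call. Of 477 alternative values of the 7 genes, 442 kept their direction, 35 reversed and 0 passed the threshold (smallest limma adjusted p 0.375). Many of these could not reverse. Other filters or variance models, the replicate block and a fit of only the groups compared return the main difference. So does omission of an array outside the comparison. Median centring moved the median over all tested probe sets by 0.22, -0.23 and -0.01 on the log2 scale in the 3 comparisons, and quantile normalization by 0.15, -0.15 and -0.02.

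In the comparison without and with LIF, the sign turned for Ireb2 with median centring (0.11) and without the arrays at odds for Socs3 (0.17), and for Slc40a1 without the alike pair (-0.37). It also turned with brightness as a block for Tfrc (-0.0745), Slc40a1 (-0.0246) and Iscu (-0.0613), and within the 6 dimmer arrays, a setting chosen after seeing the data, for Tfrc (-0.34) and Slc40a1 (-0.57). Between DETA/NO and no LIF it turned for Tfrc with quantile normalization (0.00304) and the brightness block (0.43), and for Iscu with that block (0.0888). The same held for Slc40a1 without the arrays at odds for Socs3 (-0.12), and for Slc11a2 (-0.17) and Iscu (0.52) within the 6 dimmer arrays. Between DETA/NO and LIF it turned for Iscu with the brightness block (0.0275), Aco1 without the alike pair (-0.14), and Tfrc (-0.45) and Iscu (0.68) within the 6 dimmer arrays. The mean of a gene's probe sets turned it for Tfrc (-0.033), Aco1 (-0.199) and Slc11a2 (0.0813). The cause was not tested. Leaving out 1 array at a time turned 14 of 189 values, which include omissions of arrays outside the comparison, where no value can turn. Between no LIF and LIF, Tfrc then ranged from -0.34 to 0.77, Ireb2 from -0.26 to 0.0568 and Slc40a1 from -0.57 to 1.9. Between DETA/NO and no LIF, Tfrc ranged from -0.37 to 0.0917 and Slc40a1 from -0.12 to 2.16. Between DETA/NO and LIF, Tfrc ranged from -0.52 to 0.58, Aco1 from -0.14 to 0.29 and Iscu from -0.62 to 0.14. Values that did not turn still moved with 1 array. For DETA/NO against no LIF they ranged from -0.66 to -0.46 for Fth1, -0.69 to -0.26 for Aco1, 0.12 to 0.44 for Ireb2, 0.16 to 0.63 for Slc11a2 and -0.78 to -0.016 for Iscu. For no LIF against LIF these ranges were 0.058 to 0.46 for Fth1, 0.43 to 0.68 for Aco1, -0.79 to -0.51 for Slc11a2 and 0.016 to 0.31 for Iscu. For DETA/NO against LIF they were -0.49 to -0.092 for Fth1, 0.07 to 0.29 for Ireb2, -0.47 to -0.004 for Slc11a2 and 0.8 to 2.85 for Slc40a1.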
